A study of Saccharomyces cerevisiae with 30 samples.

Results

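The comparison set the ribosomes labelled at the endoplasmic reticulum (ER) of budding yeast against those labelled at the mitochondrial surface, 30 min after auxin was added to remove Srp72, a subunit of the signal recognition particle (SRP). Its members were 10 of the 30 libraries, chosen by their labels: a pulldown and its own input from each of 3 cultures with an ER bait and 2 cultures with a mitochondrial bait. In proximity-specific ribosome profiling, a biotin ligase (BirA) anchored to a membrane biotinylates ribosomes that carry an AVI tag, and the footprints of the captured ribosomes are sequenced beside those of all ribosomes. The log2 ratio of pulldown to input is called enrichment here, and the ER enrichment minus the mitochondrial enrichment of a message is called the contrast.

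All strains carried Srp72 with an auxin-inducible degron, the OsTIR1 receptor that the degron needs, and HA-TEV-AVI tags on both copies of the large-subunit protein Rpl16. All received 500 µM auxin for 30 min. In the first ER strain the ligase was fused to Sec63, a subunit of the translocon. In the second it was fused to the tail anchor of Ubc6 and driven by the SEC63 promoter. Both of these cultures received 100 µg/ml cycloheximide for 2 min, which stalls elongating ribosomes, and then 10 nM biotin for 2 min. The third ER pair came from the Sec63 strain with no cycloheximide and a biotin pulse of 1 min. The mitochondrial ligases sat on Tom20, an import receptor of the outer membrane, and on Om45, another outer membrane protein, and both cultures had cycloheximide and biotin for 2 min each. The Tom20 strain was W303, with mutant alleles of ADE2, TRP1, CAN1, URA3, HIS3 and LEU2, whereas the other strains were S288C with leu2, met15 and ura3 deletions. Strain background and bait therefore cannot be told apart for Tom20, nor cycloheximide and pulse length for the third ER pair. Nothing in the labels says that pairs of one surface are repeats of one another. The p-values therefore measure the spread between different baits and, at the ER, also that between both treatments of the Sec63 strain. Each library pools a culture, so a partial loss in every cell and a complete loss in some cells cannot be told apart.

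SRP binds signal sequences and transmembrane segments as they leave the ribosome and brings the ribosome to its receptor at the ER. Other routes to the ER exist in yeast: the Sec62 and Sec63 complex serves many cleaved signal sequences after or during translation, the GET pathway inserts tail-anchored proteins, and the SND proteins form a further route. Many mitochondrial precursors are translated near the outer membrane, held there by their targeting sequences.

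At 30 min the inputs held 11.5 to 101 M counts and the pulldowns 6.87 to 71.0 M. The Ubc6 pair at 0 min was the shallowest of the series, with 2.04 M in the input and 4.86 M in the pulldown. In the other pairs at 0 min the inputs held 11.1 to 65.4 M and the pulldowns 13.4 to 103 M. MATa-specific messages summed to 670 to 1562 CPM in the inputs and MATalpha-specific ones to 3.79 to 8.44, in every strain. MET17, deleted in the met15 strains, had 37689 input counts in the Tom20 strain and 0 in the other inputs. HIS3 had 0 counts in the Ubc6 strain, where the ligase construct was placed at his3, and 231 to 1616 input counts in the Sec63 and Om45 strains, where OsTIR1 was placed at his3. LEU2 was counted in every strain and serves as the marker of the degron allele. URA3 is a marker in the Sec63 and Om45 strains, but it also had 1668 input counts in the Ubc6 strain, whose label gives a ura3 deletion and no URA3 marker. The gene of each bait was translated in every strain. Input counts of TOM20 were 886 in the Tom20 strain, whose input held 27.7 M, and 3441 in the Om45 strain, whose input held 32.9 M. Those of OM45 were 593 in the Om45 strain and 3149 in the Tom20 strain. Each bait gene was thus lower in its own strain in this comparison. The degron acts on the Srp72 protein, so footprints cannot check its depletion. SRP72 itself had a contrast of 0.36 ± 0.22 (SE; adjusted p = 0.383).

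The 2 surfaces were still told apart by many messages. Of 5286 genes tested with edgeR's quasi-likelihood test, 243 (4.6%) were higher at the ER baits and 615 (11.6%) were higher at the mitochondrial baits at an adjusted p under 0.05. Of these, 239 of the ER genes and 574 of the mitochondrial genes differed by more than 1 on the log2 scale. In all 858 the 3 ER pairs lay wholly to one side of both mitochondrial pairs. Such a separation alone was found for 1020 genes with the ER above (19.3%) and 1120 with the mitochondria above (21.2%), so it is common among genes that did not pass. The number of ER calls depended on single pairs. It was 865 (16.4%) without the pair that lacked cycloheximide, 174 without the Sec63 pair with cycloheximide, 49 without the Ubc6 pair, 41 without the Tom20 pair and 104 without the Om45 pair. Under all 12 alternatives, the 243 genes kept their direction wherever they were tested. This says little, since all their ER pairs lay above both mitochondrial pairs and leaving out 1 pair could hardly reverse that. The other alternatives refitted the same libraries.

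Before auxin, the same test on 10 other libraries of the same baits found 501 genes (9.48%) higher at the ER and 571 (10.8%) higher at mitochondria, 20.3% of all genes tested in all. The ER count at 0 min was 0 without the Tom20 pair (edgeR, 453 genes with p under 0.05 before adjustment), 8 without either the Ubc6 or the Om45 pair and 889 without the pair that lacked cycloheximide, so the overlaps that follow rest on each of these pairs. The ER calls at the 2 times shared 178 genes, which are 35.5% of the 0 min list and 73.3% of the 30 min list. The mitochondrial calls shared 498 genes, 87.2% of the 0 min list and 81.0% of the 30 min list. Of the 501 ER genes, 322 passed in neither direction at 30 min and 1, SAY1, passed on the mitochondrial side. A joint model of all 30 libraries tested the difference itself. Besides the pairs at 0 and 30 min it held ER pairs at 15 and 60 min of auxin. Each series had its own enrichment in it, so its p-values measure the spread between series in their changes over time. More ER pairs than mitochondrial pairs entered that spread. In this model the contrast shifted toward the ER for 137 genes (2.59%) and toward mitochondria for 561 (10.6%), and 301 of the 322 genes were among the latter. The 322 were picked by calls at 0 and 30 min from libraries that the joint model also holds. Their choice thus favoured such a shift, and the 301 are not independent support for it. Both sets depended on single series: the shifts toward the ER numbered 18 without the Tom20 series and the shifts toward mitochondria 218.

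**Figure D1:**
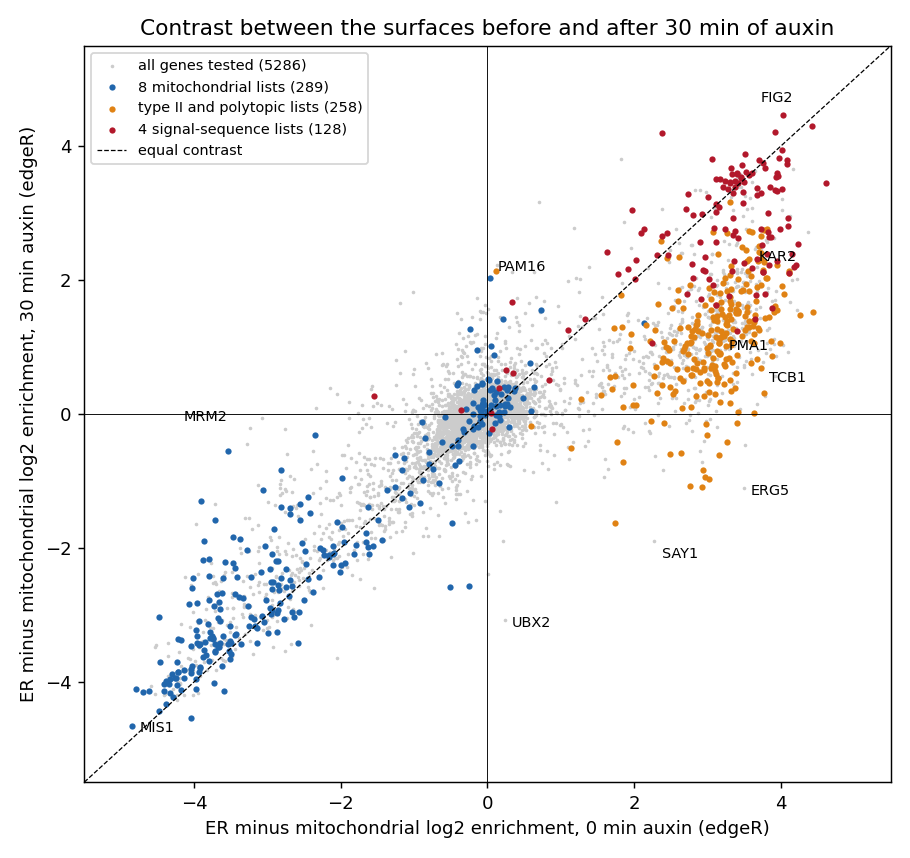
The contrast of each gene (ER minus mitochondrial log2 enrichment, edgeR) after 30 min of auxin against that at 0 min, with the dashed line marking equal values. The signal-sequence lists stay near the line on the ER side, with a median of 2.76 at 30 min against 3.38 at 0 min, and the type II and polytopic lists lie below it, with a median of 1.16 against 3.15.

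Messages with a cleaved signal sequence had the highest median contrasts of the secretory lists. Over 4 lists (soluble secreted and vacuolar proteins, ER lumenal proteins, GPI-anchored proteins and type I membrane proteins, which span the membrane once) 85 of 128 genes tested were higher at the ER and none was higher at mitochondria, against 4.6% and 11.6% of all genes. The median contrast was 2.76, against 0.02 over all genes. Without the pair that lacked cycloheximide 119 of the 128 passed, without the Ubc6 pair 25 did, and without the Tom20 pair 25. The contrast shifted toward mitochondria for 29 of the 128 and toward the ER for 1. The median shift of these lists was -0.22, but 0.18 with library totals and -0.56 with the libraries scaled to glycolysis and translation factor messages, where the median over all genes was 0.11, 0.50 and -0.23.

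FIG2, a GPI-anchored adhesin of mating cells on chromosome III (267434 to 272263 in the sacCer3 build, also called R64), had the highest contrast among the ER genes with at least 100 mean input counts. Its enrichment was 3.90 at Sec63, 4.29 at Ubc6 and 3.66 at Sec63 without cycloheximide, against -1.50 at Tom20 and -0.22 at Om45. The 3 ER pairs lay close together and far above the mitochondrial pairs, a contrast of 4.46 ± 0.44 (SE; 22.0-fold, edgeR adjusted p = 0.000666). MSB2, a single-span mucin that acts as an osmosensor at the cell surface, followed with a contrast of 4.31. Its enrichment ran from 3.95 to 4.30 at the ER and was -0.77 at Tom20 and 0.40 at Om45. Other cell surface proteins in the leading group were RAX2 (3.94) and AXL2 (3.80), which mark bud sites, the mucin HKR1 (3.83) and the cell wall mannoprotein HPF1 (3.88). GAS1, a GPI-anchored glucan remodelling enzyme, had enrichments of 4.06, 4.03 and 2.94 at the ER pairs and of -0.61 and 0.39 at Tom20 and Om45. Its contrast was 3.79 ± 0.55 (adjusted p = 0.00412), and the acid phosphatase PHO3 (3.75) and the cell wall protein EGT2 (3.73) were alike. PHO3 and PHO5 are near-identical neighbours, so the counts may share reads.

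Among ER lumenal messages 14 of 18 were higher at the ER, with a median contrast of 2.52 against 3.68 at 0 min. The contrast shifted toward mitochondria for 8 of the 18, and the median shift was -0.95. PDI1, the protein disulfide isomerase (chromosome III, 48653 to 50221), had enrichments of 4.66, 4.44 and 3.18 at the ER pairs, -0.79 at Tom20 and 0.56 at Om45. All 3 ER values were above both mitochondrial ones, with a contrast of 4.22 ± 0.68 (adjusted p = 0.00671). ERO1, the oxidase that recharges it, had a contrast of 3.80, the glucosidase II subunit GTB1 3.71 and the nucleotide exchange factor SIL1 3.68. KAR2, the Hsp70 of the ER lumen, differed from these in its mitochondrial values. It stood at 3.68, 3.53 and 2.43 at the ER pairs and at 1.06 and 1.01 at Tom20 and Om45, where it had been -0.72 and 0.04 at 0 min. The surfaces did not overlap, but its contrast was 2.18 ± 0.47 (adjusted p = 0.0232), and the shift from 0 min was -1.37 ± 0.39 (joint model, adjusted p = 0.0358). Both calls were lost under several alternatives, the contrast with DESeq2 and without the Ubc6, Tom20 or Om45 pair, the shift without the Tom20 series. LHS1, a second lumenal Hsp70, had 0.60 at Tom20 and 1.02 at Om45, with a contrast of 2.92 and a shift of -1.12 that did not pass (adjusted p = 0.0893).

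Soluble secreted and vacuolar proteins gave 28 of 38, with a median contrast of 3.08 at 30 min and 3.26 at 0 min, and 4 of the 38 shifted toward mitochondria. PRC1, carboxypeptidase Y of the vacuole, had 4.07, 3.68 and 2.69 at the ER pairs and -0.57 and 0.52 at the mitochondrial pairs. The phospholipase PLB2 had a contrast of 3.35 and the cell wall glucanase SCW11 3.33. Invertase, SUC2, was lower, at 1.14, 1.14 and 0.65 against -0.52 and -0.04, with a contrast of 1.25 ± 0.32 (adjusted p = 0.0432). GPI-anchored proteins gave 21 of 38 with a median of 2.76, against 3.31 at 0 min, and 3 shifted toward mitochondria. Among them AGA1, the anchorage subunit of a-agglutinin, and PRY3, a cell wall protein, had contrasts of 3.45 and 3.55. Type I membrane proteins gave 22 of 34 with a median of 2.60, against 3.54 at 0 min, all 34 having the 3 ER pairs above both mitochondrial pairs. Their median shift was -0.72 and 14 members shifted toward mitochondria. PEP1, the vacuolar sorting receptor, had a contrast of 3.36 and a shift of -0.59 that did not pass (edgeR adjusted p = 0.447).

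**Figure D2:**
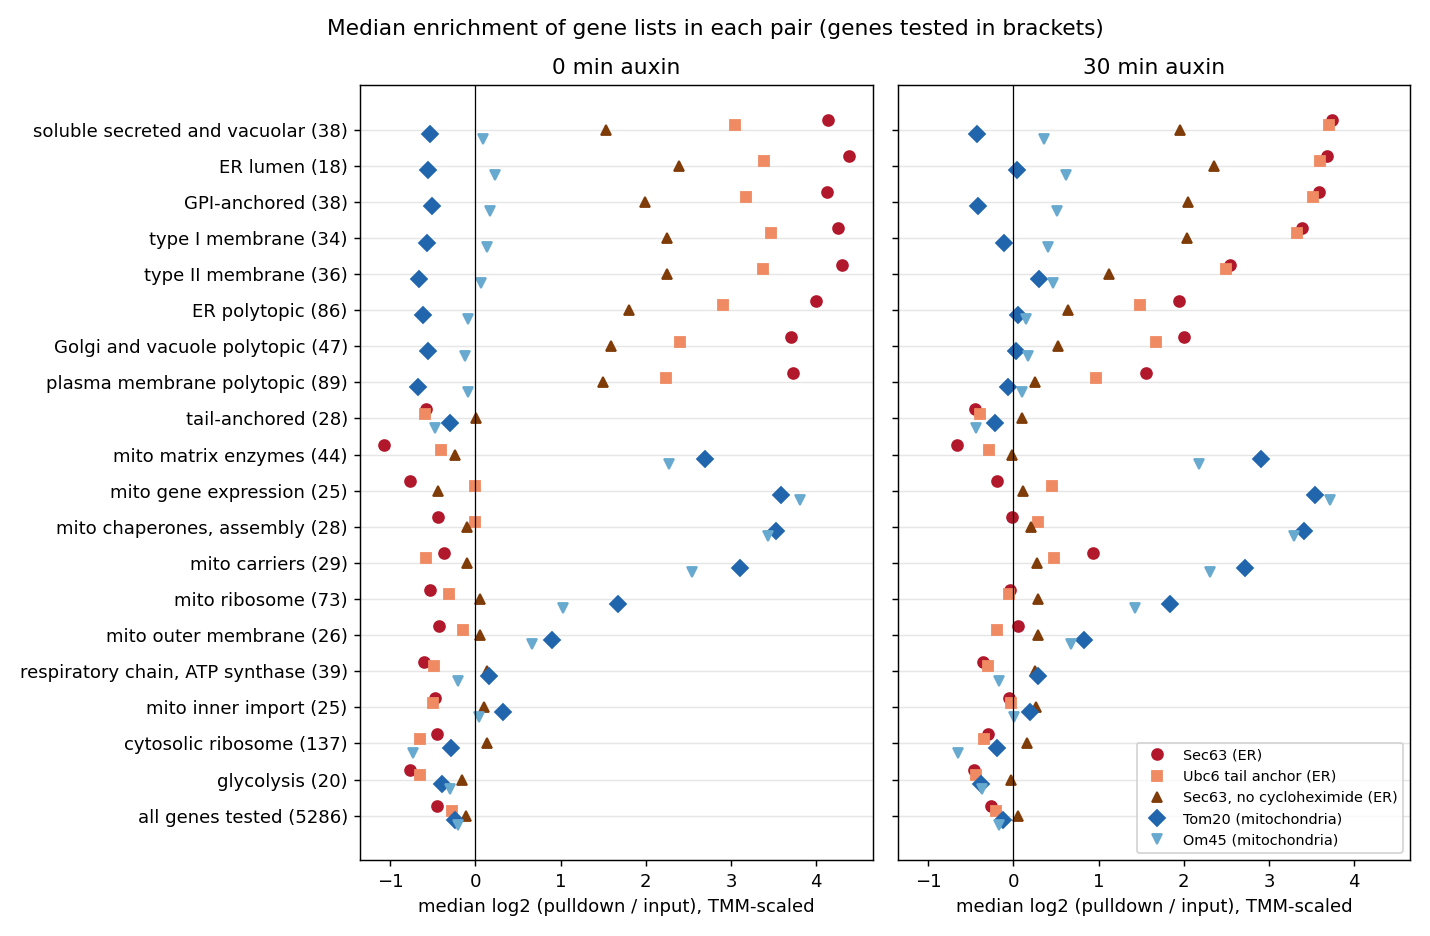
Median log2 enrichment of each gene list in each of the 5 pairs, at 0 min (left) and 30 min of auxin (right), with the number of genes tested in brackets. At 30 min the ER pairs order from Sec63 to Sec63 without cycloheximide in the signal-sequence, type II and polytopic lists, but not in the tail-anchored list, and the polytopic lists lie between the signal-sequence lists and the cytosolic ones.

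Signal-anchor and polytopic membrane proteins, whose first transmembrane segment usually serves as the targeting signal and which are the classical clients of SRP, gave fewer calls. Of 258 genes in 4 lists, 43 were higher at the ER and 1 was higher at mitochondria, with a median contrast of 1.16. At 0 min 169 were called at the ER and the median was 3.15. The joint model placed 215 of the 258 among the shifts toward mitochondria and 1 among those toward the ER, and the median shift was -1.88, -1.49 with library totals and -2.22 with the other scaling. Without the pair that lacked cycloheximide 197 of the 258 were higher at the ER at 30 min, and without the Ubc6 pair 3 were, and the median contrast was 1.61 and 1.05 in these fits. The list medians at Tom20 and Om45 were 0.04 and 0.18, against -0.63 and -0.07 at 0 min, and those of all genes were -0.12 and -0.17 against -0.25 and -0.20.

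The type II proteins, which cross the membrane once with the N-terminus in the cytosol, had the highest median contrast of these 4 lists at 30 min, 1.72. With all pairs 11 of 36 passed, without the Ubc6 or the Tom20 pair 0 did (edgeR), without the Om45 pair 2 did, and 29 had p under 0.05 before adjustment with all pairs. Of the 36, 33 shifted toward mitochondria, with a median shift of -1.67. The Golgi mannosyltransferase KRE2 had 3.72, 3.61 and 2.63 at the ER pairs and 0.67 and 0.96 at the mitochondrial pairs, a contrast of 2.51 ± 0.44 (adjusted p = 0.0100). CPS1, a vacuolar carboxypeptidase, had a contrast of 2.45, the glucosidase I CWH41 one of 2.75 and the mannosyltransferase MNT2 one of 2.31. The vacuolar aminopeptidase DAP2 had 2.40, 2.16 and 1.08 against -0.38 and 0.35. Its groups did not overlap, and its contrast of 1.90 ± 0.52 missed the threshold (adjusted p = 0.0575). Alkaline phosphatase PHO8, at 1.88, 1.28 and 0.58 against -0.28 and 0.14, also missed it (1.32 ± 0.47, adjusted p = 0.126).

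Plasma membrane transporters and sensors had the lowest median contrast of the 4 lists at 30 min. With all pairs 7 of 89 passed and the median was 0.79, against 39 and 2.90 at 0 min. PMA1, the proton pump, had 1.22, 1.03 and -0.19 at the ER pairs and -0.52 and -0.38 at the mitochondrial pairs. At 0 min it had 3.93, 2.18 and 1.50 against -0.83 and -0.37. The ER pairs still lay above the mitochondrial ones, but the contrast of 1.15 ± 0.51 did not pass (adjusted p = 0.216), and the shift of -2.00 ± 0.41 did (adjusted p = 0.00636). The receptor STE2 had a contrast of 0.71 (adjusted p = 0.303) and a shift of -2.70 (adjusted p = 0.00262). Members with the smallest p were the permease SEO1 (2.33), the low-affinity phosphate transporter PHO90 (1.59), the drug exporter FLR1 (1.64) and the ABC transporter PDR11 (1.78). None of these 4 had a shift that passed, with adjusted p from 0.136 to 0.955. At 0 min the Ubc6 values of SEO1 and FLR1 were only 0.56 and 0.58, beside 4.26 and 3.34 at Sec63.

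Polytopic ER proteins gave 16 of 86 higher at the ER and 1, SCS7, higher at mitochondria, with a median contrast of 1.28. HMG1, the sterol-synthesis reductase, had 2.98, 2.92 and 1.88 against 0.33 and 0.43, a contrast of 2.22 ± 0.44 (adjusted p = 0.0164). The GPI-anchor enzymes BST1 (2.29) and LAS21 (shift -1.93) and the mannosyltransferase ALG12 (2.73) also passed. The tether TCB1, which joins the ER to the plasma membrane, had 0.80, 0.86 and -0.15 against -0.29 and -0.06, where the groups overlapped. Its contrast was 0.68 (adjusted p = 0.384) and its shift -2.98 ± 0.36 (adjusted p = 0.000321). Golgi and vacuolar polytopic proteins gave 9 of 47 with a median of 1.24. The flippase DRS2 (2.59), the sodium and proton exchanger NHX1 (2.72) and the endosomal protein TMN2 (3.17) had shifts that did not pass (adjusted p from 0.704 to 0.936), whereas EMP70, related to TMN2, had a contrast of 2.76 and a shift of -0.98 (adjusted p = 0.0400).

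**Figure D3:**
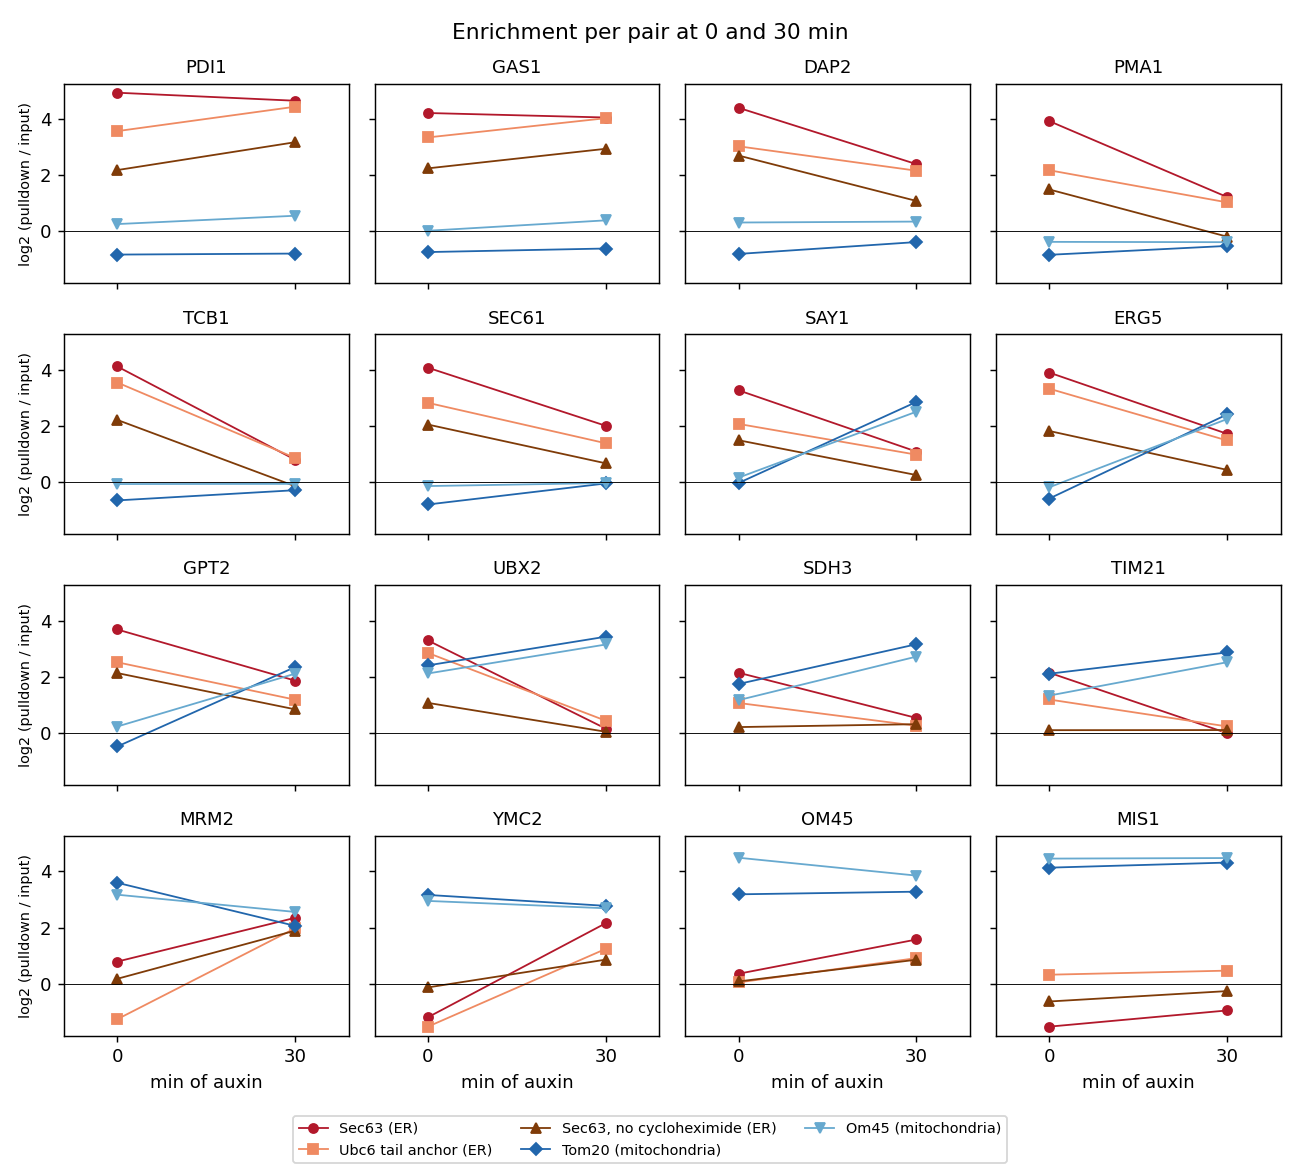
Log2 enrichment of 16 genes in each pair at 0 and 30 min of auxin, 1 line per bait series. PDI1 and GAS1 keep the ER series high, PMA1 and TCB1 fall toward the mitochondrial series, the mitochondrial series of SAY1, ERG5 and GPT2 end above the ER series, and UBX2, SDH3 and TIM21 keep only their mitochondrial enrichment.

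Messages of the targeting machinery were also compared, with 4.6% of all genes higher at the ER as the background. Over all 5286 genes DESeq2 called 472 at the ER and 680 at mitochondria. Before adjustment 607 were higher at the ER and 818 at mitochondria with p under 0.05 (edgeR). Of the SRP subunits and receptor, none of 8 passed in either direction with edgeR, DESeq2 called 1 and 1 had p under 0.05 before adjustment. The membrane subunit of the receptor had 2.77, 2.54 and 0.91 against 0.25 and 0.19 (contrast 1.88, adjusted p = 0.105), and the GTPase subunit that it holds had 1.92, 1.97 and 0.36 against 0.09 and 0.17. Of 9 translocon genes, SSH1, the second translocation channel, passed with edgeR (2.13, adjusted p = 0.0283), and 4 did so with DESeq2 or before adjustment. The call of SSH1 was lost with the glycolysis and translation factor scaling and with the spread shared with 0 min. It was also lost without the Ubc6, Tom20 or Om45 pair. SEC61, the main channel, had 2.01, 1.39 and 0.67 against -0.05 and -0.03 (1.39 ± 0.46, adjusted p = 0.101), and SEC63 had 1.70 (adjusted p = 0.0520). SEC66, a partner of Sec63, had 2.40, 2.53 and 0.17 against -0.18 and -0.14 (1.91, adjusted p = 0.179). None of 9 GET and SND genes passed. DESeq2 called 2 at the ER and 1 at mitochondria, and before adjustment 2 and 1 had p under 0.05 (edgeR). GET1 (1.54), SND3 (1.41) and SND2 (1.20) were membrane proteins of these routes with shifts toward mitochondria, by -1.81, -1.75 and -1.82. GET3, the cytosolic ATPase of the GET route, had -0.92 (adjusted p = 0.0547). Nuclear membrane proteins gave none of 9, with 3 at an unadjusted p under 0.05 and 2 by DESeq2. POM152 of the nuclear pore had a shift of -3.10 (adjusted p = 0.000188) and MPS3 of the inner membrane one of -2.26. Tail-anchored proteins, whose only membrane segment leaves the ribosome at the end of translation, gave none of 28 with edgeR or DESeq2, and none had an unadjusted p under 0.05. Their median contrast was 0.07, and BET1, a SNARE with the smallest p among them, reached 0.45 (adjusted p = 0.251). The median contrast of cytosolic ribosomal proteins was 0.26, with none of 137 called; DESeq2 called 1, and 3 had p under 0.05 before adjustment. RPP0, a stalk protein, had the smallest p among them, at 0.97, 0.49 and 0.26 against -0.37 and -0.68 (edgeR adjusted p = 0.0744).

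A few ER messages ended on the mitochondrial side. The 8 largest passing shifts toward mitochondria were ERG5, SAY1, YBR220C, STE6, GPT2, SCT1, AVT6 and YCR023C. SAY1, a sterol deacetylase of the ER (chromosome VII, 1017967 to 1019241), had 3.27, 2.08 and 1.49 at the ER pairs at 0 min against -0.03 at Tom20 and 0.16 at Om45. At 30 min it had 1.09, 0.98 and 0.25 against 2.86 and 2.51. The order of the surfaces had turned over, with contrasts of 2.28 and -1.90 (adjusted p = 0.0116 at 30 min) and a shift of -4.17 ± 0.41 (adjusted p = 0.000142). SAY1 was the only gene called on opposite sides at the 2 times. Its contrast at 30 min no longer passed once Om45, Tom20 or Ubc6 was left out, and its shift passed under every alternative.

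ERG5, the cytochrome P450 that desaturates the sterol side chain (chromosome XIII, 300869 to 302485), had the largest shift, -4.52 ± 0.30 (adjusted p = 2.6e-05). It stood at 1.72, 1.48 and 0.44 at the ER pairs and at 2.41 and 2.25 at the mitochondrial pairs, from 3.91, 3.33 and 1.82 against -0.59 and -0.18 at 0 min. Both mitochondrial values exceeded all 3 ER values at 30 min, although the contrast of -1.11 did not pass (adjusted p = 0.187). The glycerol-3-phosphate acyltransferases were alike: GPT2 had 1.86, 1.18 and 0.84 against 2.35 and 2.11, and SCT1 had 1.53, 1.53 and 0.47 against 1.81 and 1.79. STE6, the exporter of a-factor, had 1.55, 1.35 and 0.65 against 2.31 and 1.99. For the vacuolar transporter AVT6 the surfaces overlapped, at 2.73, 1.67 and 1.05 against 2.67 and 2.64. None of these 4 contrasts passed at 30 min (adjusted p from 0.156 to 0.463), and their shifts ran from -3.71 to -3.92.

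SCS7, the ER enzyme that hydroxylates sphingolipid fatty acids, was the member of the polytopic ER list called at mitochondria. That call was lost with the spread shared with 0 min and without the Ubc6, Tom20 or Om45 pair. SCS7 had 0.71, 0.28 and 0.14 against 1.96 and 2.05 at 30 min, a contrast of -1.62 ± 0.30 (edgeR adjusted p = 0.0117). At 0 min it had 3.30, 1.67 and 0.82 against -0.06 and 0.56. It was 1 of 6 genes that were called at neither surface at 0 min, were called at mitochondria at 30 min and had a passing shift. The others were UBX2, SDH3, TIM21, PTC7 and CLN3, which were named after their values were seen.

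UBX2, a membrane protein that recruits the ATPase Cdc48 both in ER protein degradation and at the mitochondrial import channel (chromosome XIII, 244149 to 245903), was enriched at both surfaces before auxin. It had 3.29, 2.85 and 1.07 at the ER pairs and 2.41 and 2.12 at Tom20 and Om45. At 30 min it had 0.15, 0.43 and 0.04 at the ER pairs and 3.43 and 3.15 at the mitochondrial pairs. The surfaces overlapped at 0 min and were far apart at 30 min, with a contrast of -3.08 ± 0.26 (adjusted p = 0.000355) and a shift of -3.22 ± 0.53 (adjusted p = 0.00183).

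SDH3, a membrane subunit of succinate dehydrogenase, went from 2.15, 1.07 and 0.21 against 1.74 and 1.17 to 0.53, 0.26 and 0.31 against 3.16 and 2.72. TIM21, a subunit of the inner membrane translocase, went from 2.15, 1.19 and 0.10 against 2.11 and 1.33 to -0.01, 0.23 and 0.10 against 2.87 and 2.52. The surfaces overlapped in both genes at 0 min and were separate at 30 min. In both, the ER pair without cycloheximide lay between 0.10 and 0.31 at either time. The shift of SDH3 no longer passed without the Ubc6 series, and that of TIM21 no longer passed without any 1 of 4 series. PTC7, a phosphatase with forms at mitochondria and the nuclear envelope, had 1.82, 1.56 and 0.70 against 2.82 and 3.15 at 0 min. Its surfaces were thus already separate then, with a contrast of -1.55 that did not pass (edgeR adjusted p = 0.0751). The shift of PTC7 was -0.97, and that of CLN3, a G1 cyclin, was -1.01.

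Over 8 lists of mitochondrial proteins 185 of 289 genes were higher at the mitochondrial baits and 1 was higher at the ER, with a median contrast of -2.19. Leaving out 1 pair gave 159 to 196. The leading messages with at least 100 mean input counts were MIS1 (-4.65), COX15 (-4.54), OCT1 (-4.43), LEU4 (-4.33), AIM9 (-4.27), DLD2 (-4.23), LEU9 (-4.22), POS5 (-4.20), ETR1 (-4.20), YME2 (-4.19), ILV1 (-4.19) and LIP5 (-4.18). MIS1, a folate enzyme of the matrix (chromosome II, 411054 to 413981), had -0.95, 0.47 and -0.26 at the ER pairs and 4.32 and 4.48 at Tom20 and Om45, a 25.2-fold difference (SE 0.43 on the log2 scale, adjusted p = 0.00052). Of the 12, only MIS1, LEU4, LEU9, COX15 and OCT1 were in the lists; LEU4 and LEU9 are similar genes whose counts may share reads. None of the 12 had a shift that passed (adjusted p from 0.584 to 0.988).

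Matrix enzymes gave 42 of 44 and a median contrast of -2.93. PUT1, proline oxidase, had -0.14, 0.11 and -0.09 against 3.86 and 4.09. Mitochondrial gene expression factors gave 24 of 25 and a median of -3.32, among them the elongation factor MEF1 (-4.13). Chaperones, proteases and assembly factors gave 24 of 28, median -2.95, and the Hsp40 protein MDJ1 had a contrast of -3.89. Mitochondrial ribosomal proteins gave 40 of 73, median -1.98, and MRPL1 had -3.95. Respiratory chain and ATP synthase subunits gave 16 of 39 and a median of only -0.14, near that of all genes. Within that list ATP2 had -0.74, 0.11 and 0.03 against 3.87 and 4.08, and COX4 had -0.28, -0.40 and 0.24 against 0.26 and -0.28. ATP2 separated the surfaces widely (-4.17, adjusted p = 0.000267) and COX4 did not (-0.14, adjusted p = 0.844). ATP4 and CYT1 had contrasts of -3.42 each.

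Outer membrane proteins gave 12 of 26, median -0.83. The receptor TOM70 had 0.27, 0.24 and 0.19 against 3.84 and 3.47 (contrast -3.42), TOM40, the import pore, had -3.04, and the lactone oxidase ALO1 had -3.59. Porin, POR1, had a smaller contrast of -1.26 ± 0.28 (adjusted p = 0.0276), with 1.12 at Tom20 and 0.68 at Om45. Inner membrane import proteins gave 10 of 25 higher at mitochondria and 1, PAM16, higher at the ER. TIM50 had -3.85 and the oxidoreductase MIA40 had -3.46. The ERMES proteins MDM10 (-2.90) and MDM34 (-2.30), which join mitochondria to the ER, were called at mitochondria. MMM1, their partner anchored in the ER, had 1.52, 1.38 and 0.32 against -0.39 and 0.02 (1.26, adjusted p = 0.131) and a shift of -2.47 (adjusted p = 0.00038). None of 20 peroxisomal membrane proteins passed at 30 min; DESeq2 called 1 and 1 had p under 0.05 before adjustment. PEX30, of the ER domain that makes peroxisomes, had a shift of -1.74, and PEX22, a peroxisomal anchor protein, one of 1.06 (adjusted p = 0.0414).

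Gene length moved with the calls inside the mitochondrial and signal-sequence lists. Lengths came from RefSeq's R64 gene table, and the length classes were chosen after the values were seen. No such classes were made over all genes. There the median length was 1344 bases for genes called at mitochondria, 1617 for those called at the ER and 1218 for the rest. Of 89 genes of the mitochondrial lists shorter than 600 bases, 13 (14.6%) were called at mitochondria, near the 11.6% of all genes. The median mitochondrial enrichment of the 89 was -0.05, near the medians of all genes, which were -0.12 at Tom20 and -0.17 at Om45. From 600 to 899 bases 29 of 39 were called (74.4%, median enrichment 2.87), and from 1800 bases 35 of 37 (94.6%, median 3.45). In the signal-sequence lists 7 of 34 genes under 900 bases were called at the ER (20.6%), and 23 of 24 from 2100 bases (95.8%). There the short genes were enriched too, with a median at the ER of 2.32 against 3.56 for the long ones. Within the respiratory list the called members had a median length of 1022 bases and the others one of 348. For mitochondrial ribosomal proteins these were 902 and 432 bases. The carrier list did not show this, with 936 bases for the called members and 960 for the others. Over the type II and polytopic lists together the medians of called and other genes were 1731 and 1730 bases, but in the polytopic ER list alone the genes called at the ER had a median of 2075 bases and the uncalled ones one of 1347.

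**Figure D4:**
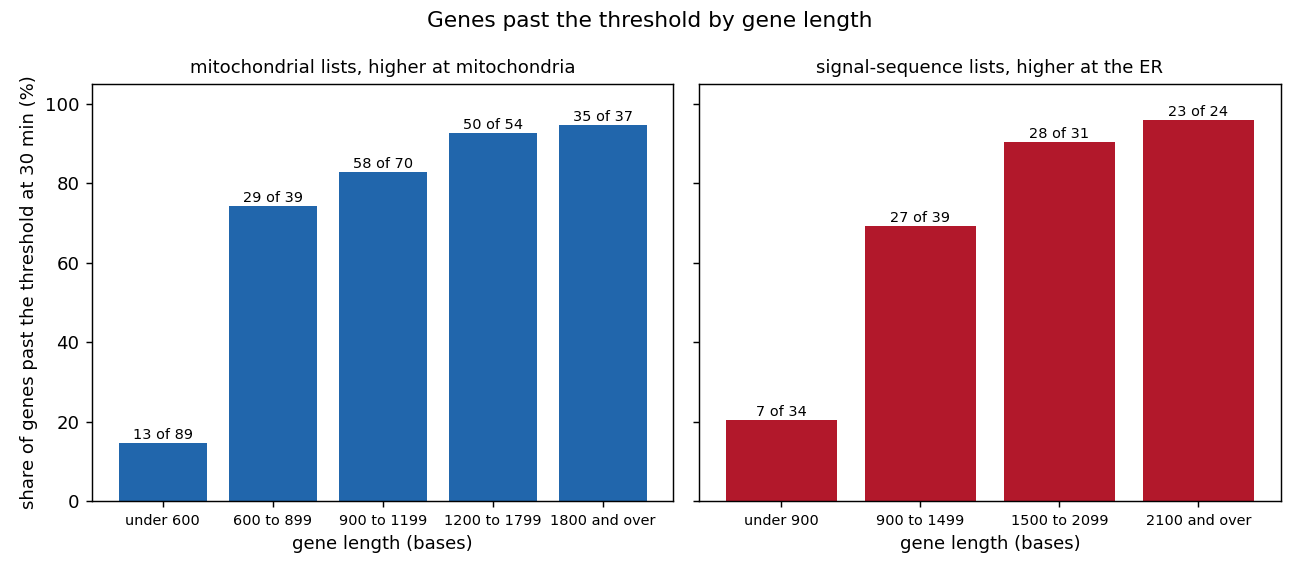
Share of genes past the threshold at 30 min (bars, %) by gene length in bases, for the mitochondrial lists called at mitochondria (left) and the signal-sequence lists called at the ER (right), with counts above the bars. The share rises from 14.6% to 94.6% on the left and from 20.6% to 95.8% on the right. Over all genes of any length 11.6% were called at mitochondria and 4.6% at the ER.

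A group of mitochondrial messages came to be enriched at the ER as well. The 8 largest passing shifts toward the ER were those of MRM2, IRC3, YSC83, YMC2, AEP2, OAR1, MRX10 and MCY1. MRM2, which methylates mitochondrial ribosomal RNA (chromosome VII, 252897 to 253859), had 2.35, 1.98 and 1.89 at the ER pairs and 2.06 and 2.56 at the mitochondrial pairs at 30 min. At 0 min it had 0.79, -1.26 and 0.17 against 3.60 and 3.17. MRM2 had only 254 mean input counts at 30 min, and the whole Ubc6 input at 0 min held 2.04 M. The surfaces were separate at 0 min and overlapped at 30 min, when the contrast was -0.21 (adjusted p = 0.779), and the shift was 3.01 ± 0.50 (adjusted p = 0.00183).

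YSC83, a mitochondrial protein, had 2.58, 2.38 and 1.27 against 2.58 and 2.48, from -0.70, 0.14 and -0.18 against 3.19 and 3.01. The carrier YMC2 had 2.16, 1.24 and 0.86 against 2.77 and 2.69, from -1.20, -1.53 and -0.13 against 3.16 and 2.95. AEP2, a translation factor for a mitochondrial message, had 2.66, 2.15 and 1.81 against 3.32 and 3.81, and its shift was 2.46 ± 0.28 (adjusted p = 0.000264). In these 4 genes every ER pair was higher at 30 min than at 0 min, and both mitochondrial pairs were above 2 at both times. MRX10, at 2.18, 1.45 and 1.72 against 3.26 and 3.63, was the only one of the 8 still called at mitochondria at 30 min (-1.64, adjusted p = 0.0138). IRC3, a helicase, had 1.52, 1.41 and 0.64 against 0.88 and 1.67, on 246 mean input counts. OAR1, of mitochondrial fatty acid synthesis, had 3.11, 3.09 and 1.60 against 1.84 and 2.61, on 145 mean input counts, and its shift was lost when any 1 series but the one without cycloheximide was left out. MCY1 had 2.22, 1.90 and 1.09 against 2.26 and 2.42.

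Among mitochondrial carriers, which exchange metabolites across the inner membrane, the median contrast was -1.63 at 30 min and -2.81 at 0 min, 17 of 29 were called at mitochondria against 24 at 0 min, and 7 had a passing shift toward the ER. With 1 pair left out, 9 to 24 were called at 30 min. Its median at the ER pairs was 0.94 at Sec63, 0.48 at Ubc6 and 0.28 at Sec63 without cycloheximide, and the medians at Tom20 and Om45 were 2.72 and 2.30. At 0 min the ER medians had been -0.37, -0.58 and -0.10. Shifts toward the ER also passed for 7 of 25 mitochondrial gene expression factors. Over the 8 mitochondrial lists 32 of 289 genes shifted toward the ER and 2 toward mitochondria, against 2.59% and 10.6% of all genes. MIR1, the phosphate carrier, and HEM25, the glycine carrier, kept contrasts of -2.69 and -2.87, with shifts that did not pass (adjusted p = 0.0585 and 0.157). Among the bait genes, OM45 had 1.57, 0.91 and 0.85 at the ER pairs, from 0.35, 0.05 and 0.08, and a shift of 1.22 ± 0.28 (adjusted p = 0.0116), while TOM20 had 2.05, 1.76 and 0.38 and a shift of 1.33 that did not pass (adjusted p = 0.0579). The message of the ER bait protein UBC6 was at -0.74, -0.52 and 0.09 against -0.18 and -0.44, with no difference that passed (adjusted p = 0.905).

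At 30 min 48 genes had a log2 enrichment above 1 in all 5 pairs, and at 0 min 2 genes did. At 0 min 21 of the 48 had been called at mitochondria, 17 at the ER and 10 at neither. Of all genes tested, 10.8% were called at mitochondria and 9.48% at the ER at that time. At 30 min 39 of the 48 were called at neither surface. That is near the share of all genes, 4428 of 5286, and a high enrichment in all 5 pairs also favours a small contrast. KAR2, AVT6, MRM2, YSC83, MCY1, OAR1, MRX10 and AEP2 were among the 48. The count has no test and depended on the scaling: it was 17 against 0 with library totals and 69 against 5 with the libraries scaled to glycolysis and translation factor messages. Without the pair that lacked cycloheximide it was 111 against 20, and without the Tom20 pair 81 against 19. By the mean over the pairs of each surface, 130 genes (2.46%) were above 1 at both surfaces, against 22 (0.416%) at 0 min.

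**Figure D5:**
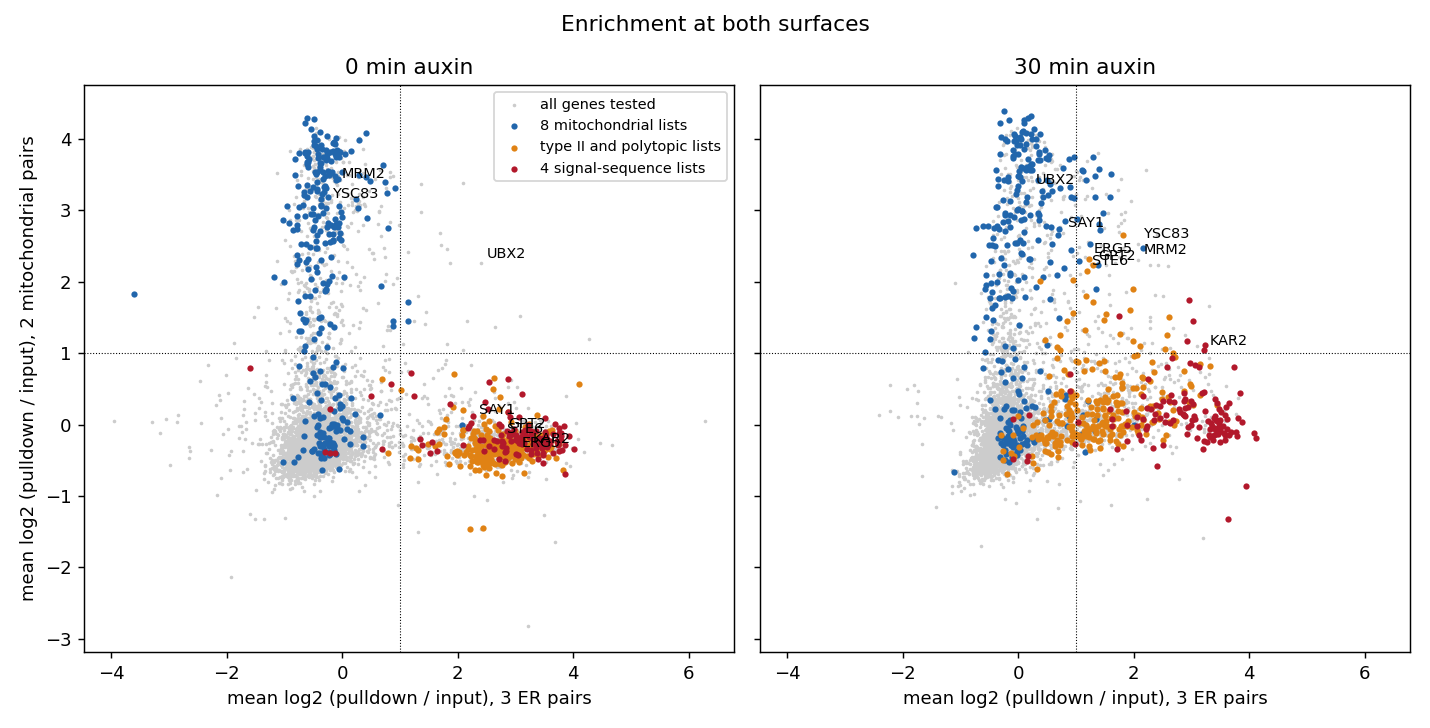
Mean log2 enrichment at the 2 mitochondrial baits against the mean at the 3 ER baits for each gene, at 0 min (left) and 30 min of auxin (right), with dotted lines at 1. The upper right field holds 22 genes at 0 min and 130 at 30 min, and ERG5, STE6, GPT2, MRM2 and YSC83 enter it from opposite sides.

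Some ER calls at 30 min were new: 65 of the 243 had not been called at 0 min, and 13 of the 65 had a shift toward the ER that passed. Examples chosen after their values were seen were PAM16, CCC1, DID4 and RAT1. PAM16, part of the motor that pulls precursors into the matrix (chromosome X, 227327 to 227776), had 2.67, 2.07 and 1.29 at the ER pairs and near 0 at both mitochondrial pairs. At 0 min its 5 values had run from -0.51 to 0.21, and its shift was 2.02 ± 0.50 (joint model, adjusted p = 0.0178). The call of PAM16 at 30 min was lost with the glycolysis and translation factor scaling and without the Ubc6, Tom20 or Om45 pair. CCC1, the vacuolar iron transporter, had 3.24, 2.56 and 1.68 against 0.29 and 0.43, from 1.46, 0.44 and 0.16 against 0.61 and 0.68. DID4, an ESCRT-III subunit of the cytosol and endosome, had 2.56, 1.99 and 2.02 against 0.23 and -0.09, and a shift of 1.84 ± 0.22 (adjusted p = 0.000327). RAT1, a nuclear exonuclease, had 1.88, 2.00 and 1.72 against 0.38 and 0.30. In PAM16, CCC1, DID4 and RAT1 every ER pair was above both mitochondrial pairs. TDH2, a glycolytic enzyme, had 0.40, 0.43 and 0.39 against -0.39 and -0.47 (0.84 ± 0.21, edgeR adjusted p = 0.0445), a small contrast of a near-identical copy of TDH3 (0.80, adjusted p = 0.0655). TDH2 kept its call under 3 of 12 alternatives.

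Of the called genes, 111 at the ER and 421 at mitochondria were in none of the lists. At the ER the smallest p-values among these were those of CSS1, YNR066C, SMN1, FET5 and NCR1. FET5, a vacuolar multicopper oxidase, had 4.08, 3.99 and 3.25 against -0.43 and 0.72 (3.63, adjusted p = 0.00334), and NCR1, a vacuolar sterol transporter, had a contrast of 2.59. CSS1 (3.66) rested on 58.4 mean input counts. At mitochondria, LYS4 of lysine synthesis (-4.03), AIM45 (-3.82) and the initiation factor IFM1 (-3.45) were in the same position. Messages of cytosolic proteins were also called at mitochondria. The proteasome base subunit RPN2 had -0.46, -0.30 and -0.25 against 2.38 and 1.85 (-2.46 ± 0.23, adjusted p = 0.000558), and RLI1, a ribosome recycling factor, had -0.48, -0.23 and -0.07 against 2.11 and 2.11 (-2.37 ± 0.21, adjusted p = 0.000419). Both stood at similar values at 0 min, with contrasts of -2.51 and -2.43. Smaller contrasts were those of PRE1 (-1.37), PRE10 (-1.20), CAM1 (-1.09) and the small heat shock protein HSP42 (-1.04). The lists of proteasome subunits, translation factors and cytosolic chaperones had no other member called. Their 3 of 32, 2 of 36 and 1 of 20 are shares below the 11.6% of all genes called at mitochondria.

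The ER pairs differed among themselves. Over the 243 ER genes the median enrichment was 3.28 at Sec63, 2.98 at Ubc6 and 1.97 at Sec63 without cycloheximide, and 233 of them were lowest in the last pair. The largest ranges among called genes with at least 100 mean input counts were those of PRY2, CCW14, SUN4, UTH1 and PHO5 on the ER side and HFA1 on the mitochondrial side. CCW14, a short GPI-anchored wall protein, had 3.83, 3.46 and 1.74, and PRY2, a secreted sterol-binding protein, had 3.56, 3.76 and 1.53. The same pair was low at 0 min, with 0.33 for CCW14 and 0.69 for PRY2. HFA1, the mitochondrial acetyl-CoA carboxylase, had -1.05, 1.21 and -0.81 at the ER pairs and 3.59 and 3.99 at the mitochondrial pairs; its Ubc6 value stood apart. The mitochondrial pairs were closer to each other, with medians of 2.70 at Tom20 and 2.39 at Om45 over the 615 genes, and 420 of the 615 were higher at Tom20.

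Between the mitochondrial pairs the largest gaps among called genes were those of ADH4, MSC1, NUP100, YGP1, GCV3 and PDX1. ADH4, an alcohol dehydrogenase, had 4.22 at Tom20 and 1.38 at Om45. NUP100, a nucleoporin, had 1.51 and 3.19, and PDX1, of the pyruvate dehydrogenase complex, 3.12 and 1.47. MSC1 and YGP1, whose messages were high at the ER, had 1.58 and 1.19 at Om45 and -0.51 and -0.48 at Tom20. The gaps were present at 0 min, when ADH4 had 3.95 and 1.68 and NUP100 had 1.69 and 3.20. Strain differs between these baits as well as the protein that carries the ligase.

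As single values over the pairs, the medians of the signal-sequence lists (3.61, 3.49 and 2.09 at the ER pairs, -0.31 and 0.42 at the mitochondrial pairs) and of the mitochondrial lists (-0.14, -0.02 and 0.22 against 2.64 and 2.24) did not overlap between surfaces. An exact permutation test over the 5 pairs, which cannot go below p = 0.1 with 10 splits, gave 0.1 for both (2-sided). For the type II and polytopic lists (1.92, 1.43 and 0.56 against 0.04 and 0.18) it gave p = 0.2 (exact, 2-sided), with the ER pairs again above both mitochondrial pairs.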

How the data were processed

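Ribosome footprints were counted by the authors, who deposited whole-number counts and RPKM per gene, per the file headers. Cells were grown, treated, footprinted with RNase I and captured on streptavidin as the labels' protocols describe, with linkers that carried a molecular identifier in the samples with a barcode. The labels give no barcode for the Ubc6 libraries, and whether these had identifiers is not given in the sources used here. CASAVA, Bowtie 1.1.2 and TopHat2 2.1.1 and the build sacCer3 are named in the submitters' processing notes; whether identifiers were collapsed is not given in the sources used here, so counts may include PCR copies. The deposited RPKM values were used only to describe gene levels in tables and enter no test.

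From the deposited counts, genes with a mean of at least 20 over the 15 inputs of the series were kept (5286 of 5890). Enrichment is the difference of TMM-scaled log2 CPM (prior count 1) between a pulldown and the input of the same culture, and that pairing, stated by the titles, was the block. edgeR 4.0.16 in R 4.3.3 fitted pair plus fraction by surface (3 residual degrees of freedom at 30 min), with 2-sided p-values adjusted by Benjamini and Hochberg over all genes, and all 30 libraries entered the joint model of the shift (6 residual degrees of freedom). SE is the fitted log2 value over the root of the F statistic. The scripts were tested on simulated counts. Named genes are up to 12 per direction with the largest contrast (at least 100 mean input counts, no overlap of the surfaces), up to 4 of each list with the smallest p, up to 8 per direction with the largest shift, up to 5 called genes in no list, up to 6 with the largest range at each surface, fixed examples and the bait genes; 9 more were named after their values were seen, and not every gene the rule allows is described. The members and lists were chosen with earlier results of these data known. RefSeq's R64 table matched 5887 of 5890 genes. Alternatives were DESeq2 1.42.0, library totals, scaling to glycolysis and translation factor genes, other filters, no block, a shared spread and leaving out each pair.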

Additional observations from a re-analysis of the deposited data

Results flagged for a closer look

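The ER minus mitochondrion contrast differed between 30 and 0 min for 55 of the named genes, by edgeR's joint model at an adjusted p under 0.05, and the values here are that difference on the log2 scale (30 minus 0 min). Groups of 3 and 2 pairs are too small for a test of single outlying samples. Among lumenal, secreted and type II proteins the values were -1.37 for KAR2, -1.22 for BAR1, -1.74 for DAP2, -2.22 for PHO8, -1.37 for MNT2, -1.12 for KRE2 and -1.01 for CPS1. Among polytopic proteins they were -1.67 for HMG1, -2.00 for PMA1, -2.98 for TCB1, -1.33 for BST1, -1.93 for LAS21, -3.31 for SCS7, -0.98 for EMP70, -2.70 for STE2 and 2.07 for CCC1.

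The largest shifts toward mitochondria were -4.52 for ERG5, -4.17 for SAY1, -3.94 for YBR220C, -3.92 for STE6, -3.84 for GPT2, -3.73 for SCT1, -3.71 for AVT6 and -3.63 for YCR023C. UBX2 had -3.22, SDH3 -2.26, TIM21 -2.01, CLN3 -1.01 and PTC7 -0.97. In the targeting machinery and the nuclear, contact site and peroxisomal membranes, the values were -2.06 for SEC61, -2.15 for SEC63, -1.35 for the membrane subunit of the SRP receptor, -1.25 for SSH1, -1.81 for GET1, -1.75 for SND3, -1.82 for SND2, -2.26 for MPS3, -3.10 for POM152, -2.47 for MMM1, -1.74 for PEX30 and 1.06 for PEX22.

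Shifts toward the ER were 3.01 for MRM2, 2.97 for IRC3, 2.83 for YSC83, 2.58 for YMC2, 2.46 for AEP2, 2.46 for OAR1, 2.42 for MRX10, 2.18 for MCY1, 1.22 for OM45, 2.02 for PAM16, 1.84 for DID4, 1.68 for RAT1, 0.89 for TDH2 and 0.73 for TDH3.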

How the results depend on the processing

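No named gene that passed in a main or an alternative setting changed sign between them in the alternatives that were run. The count of genes higher at the ER at 30 min (243) was 472 with DESeq2, 587 with library totals and 135 with scaling to glycolysis and translation factor messages, and 41 to 865 with 1 pair left out. It was 49 without the Ubc6 pair, 41 without the Tom20 pair, 104 without the Om45 pair and 865 without the pair that lacked cycloheximide. The count at mitochondria (615) ran from 429 to 710 with 1 pair left out. Without the pairing of a pulldown with its own input (no replicate block) the counts were 192 and 501. At 0 min the ER count (501) was 155 with the glycolysis scaling and 0 to 889 with 1 pair left out: 8 without the Ubc6 pair, 0 without the Tom20 pair (edgeR, 453 at an unadjusted p under 0.05; DESeq2 was not run there), 8 without the Om45 pair and 889 without the pair that lacked cycloheximide. The mitochondrial count (571) ran from 221 without the Tom20 pair to 602, and was 308 without the Om45 pair. Shifts toward the ER (137) numbered 271 with library totals, 48 with the glycolysis scaling, 89 from the 0 and 30 min libraries alone and 18 to 195 with 1 series left out, that is 55 without Sec63 with cycloheximide, 65 without Ubc6, 18 without Tom20 and 43 without Om45. Shifts toward mitochondria (561) ran from 218 without the Tom20 series, and 374 without the first Sec63 series, to 611. Over the named genes and alternatives, 1523 values at 30 min kept their call or its absence, 180 lost and 69 gained a call, and 2 that passed in neither setting changed sign by over 1 SE. Of the shifts, 1165 kept it, 91 lost and 27 gained a call, and 49 changed sign in that way, 25 of them with the glycolysis scaling. The glycolysis scaling at 0 min and of the shift was chosen after seeing the data. The causes of these differences were not tested.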
